A study of Mus musculus with 11 samples.

Results

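The cells described here were barcodes from dissociated mouse lung that carried transcripts of Cd209a, a C-type lectin receptor of the DC-SIGN family, together with H2-Ab1, the beta chain of an MHC class II molecule. A barcode with 1000 to 30000 unique molecular identifiers (UMIs, each standing for a captured transcript) and at most 14% mitochondrial UMIs was a member when it held at least 2 Cd209a UMIs and at least 5 H2-Ab1 UMIs. It also had to hold at most 1 UMI of Xcr1 and Clec9a together, at most 2 UMIs of Ccl22 and Fscn1 together, under 10 UMIs of C1qa, C1qb and C1qc together, and none of Cd3e or Cd79a. By this rule 398 of 69266 filtered barcodes (0.575%) were members, out of 81983 barcodes in the files. The cells were thus chosen by their measured counts of these genes, whose levels are a description and support nothing.

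The 4 genotype labels cover the 11 libraries of 3′ droplet sequencing: wild type (+/+), called WT, with 1 library; p21 heterozygotes (+/-), called p21Het, with 3; p21 mTert (+/mTert), called p21mTert, with 5; and p21 mTertCD (+/mTertCD), called p21mTertCD, with 2. p21 is the cell-cycle inhibitor encoded by Cdkn1a, mTert is the mouse telomerase reverse transcriptase, and the series' title places its induction in p21-positive cells. The 3 groups other than WT each keep 1 wild-type allele by their labels, and the labels do not spell out CD. All libraries hold total lung cells after enzymatic digestion and lysis of red cells, labelled as 18 months of age except p21Het replicate 1 (19 months) and p21mTert replicate 1 (20 months), although the titles give 18 for every library. WT and replicates 1 of p21Het and p21mTert carry the library source label "transcriptomic" and are called the earlier deposit, whereas the other 8 libraries are labelled "transcriptomic single cell". Nothing in the labels ties a library to its own animal, so the p-values measure the spread between libraries.

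Dendritic cells take up antigen, cut it into peptides and present these to T cells. Conventional dendritic cells fall into a type 1 branch, which depends on the factors Irf8 and Batf3 and presents antigen from dead cells on MHC class I, and a type 2 branch, which carries Sirpa and Itgam (CD11b), uses Irf4 and mainly primes CD4 T cells through MHC class II. In mouse lung, Cd209a, Mgl2 and Clec10a are used as type 2 genes, and monocyte-derived cells can carry several of them, with Ly6c2, Fcgr1 and Ccr2 pointing to the monocyte lineage and Flt3 and Zbtb46 to the dendritic lineage. Plasmacytoid dendritic cells, the main producers of type I interferon, are a separate lineage marked by Siglech, Ccr9 and the factor Tcf4.

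The 3 promoter stretches are printed first because their genes stood higher in these cells than in another cell gate of the same libraries. For Clec4a1 and Ifitm6 that gate was type 1 dendritic cells, and for Cd209d classical monocytes. Each stretch holds the Ets-IRF composite element, at which Irf4 or Irf8 can bind beside an Ets-family factor. This element was searched as GGAA, then any 2 bases, then GAAA, on both strands. Each is 100 bases, 5′ to 3′ on the gene's own strand, from RefSeq (GRCm38.p6), with the matching letters on either strand in capitals. Clec4a1 and Cd209d encode C-type lectin receptors and Ifitm6 encodes a small membrane protein of the interferon-induced transmembrane family.
Clec4a1 (chr6:122921598-122921697, plus strand, 250 to 151 bases before the start): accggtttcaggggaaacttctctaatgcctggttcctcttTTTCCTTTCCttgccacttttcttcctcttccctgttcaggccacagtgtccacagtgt
Ifitm6 (chr7:141017043-141017142, minus strand, 250 to 151 bases before the start): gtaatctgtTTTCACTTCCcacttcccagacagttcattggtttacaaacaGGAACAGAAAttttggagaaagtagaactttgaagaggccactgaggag
Cd209d (chr8:3878515-3878614, minus strand, 115 to 16 bases before the start): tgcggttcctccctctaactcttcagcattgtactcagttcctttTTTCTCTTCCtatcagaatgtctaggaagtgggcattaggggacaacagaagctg
The motif occurs on either strand in 892 of 32851 RefSeq promoters (2.72%; 250 bases before to 50 after the start). It was found for 2 of the 11 matched genes named below as higher than in type 1 cells and for 1 of the 9 named as higher than in monocytes, and for none of the matched genes named as lower there. None of the 7 matched genes named as higher with Ly6c2 and none of the 10 named as lower held it. The motif was chosen after the levels were known, and a match is a description of the letters only.

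Members were found in every library. In order of replicate, the counts were 43 for WT, then 36, 41 and 52 for p21Het, next 45, 29, 18, 38 and 25 for p21mTert, and finally 33 and 38 for p21mTertCD. The members of a library held 270515 to 922303 UMIs together, their median depth was 10450 to 17600.5 UMIs per cell by library, and the median member showed 3072 detected genes. No member barcode occurred in more than 1 library, while any 2 libraries shared 4 to 20 filtered barcodes. A doublet score marked 30 members (7.54%), which were kept.

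The median member held 8 Cd209a UMIs (highest 58) and 100 H2-Ab1 UMIs (highest 354). Just inside the Cd209a threshold, the 53 members with exactly 2 UMIs had a summed H2-Ab1 level of 5624 counts per 1000000 UMIs (CPM), Clec10a at 237 and Mgl2 at 91.0. Just outside it, the 63 barcodes with 1 Cd209a UMI that met every other condition had H2-Ab1 at 4763 CPM, Clec10a at 183 and Mgl2 at 132. Over all members these levels were 8053, 319 and 563 CPM. Flt3 stood at 145 CPM inside, 107 outside and 127 over all members, and Fcgr1 at 50.4, 26.4 and 26.1, so no single order of the 3 held for these genes. Ly6c2 was higher near the thresholds, at 486 CPM inside and 398 outside against 227 over all members. In the members with 5 or 6 H2-Ab1 UMIs it was at 587 CPM. The H2-Ab1 and C1q thresholds touched few cells, with 10 members at 5 or 6 H2-Ab1 UMIs against 9 barcodes at 3 or 4, and 3 members at 5 to 9 C1q UMIs against 1 barcode at 10 to 14.

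Markers that the rule did not use were then read as the share of members with at least 1 UMI, beside the share in 15528 B cells of the same libraries (Cd79a at least 3 UMIs), which should lack them and had a shallower median depth of 4686.5 UMIs against 13058 in the members. Clec10a, a galactose-binding lectin, was detected in 300 members (75.4%; B cells 0.328%) and the related lectin Mgl2 in 153 (38.4%; 0.361%). Flt3, the receptor for the main growth factor of dendritic cells, was detected in 299 (75.1%; 2.94%), Sirpa in 307 (77.1%; 5.78%), Itgam in 288 (72.4%; 3.34%) and Itgax (CD11c) in 231 (58.0%; 1.97%). Zbtb46, a factor of conventional dendritic cells, was seen in 75 members (18.8%; 0.869%), and Irf4 in 194 (48.7%), although B cells use Irf4 too (33.7%). Zbtb46 was more frequent in the type 1 and mature dendritic cells gated below, at 37.9% and 47.2%. With each cell thinned to 1000 UMIs its shares were 1.51% in members, 2.81% in type 1 and 2.82% in mature cells. Flt3 was also more frequent in those gates (82.8% and 81.0%), and Itgax in type 1 cells only (76.8%; mature 54.9%). Clec10a, Mgl2, Sirpa and Itgam were more frequent in the members than in either gate. In the classical monocytes gated below, however, Sirpa (82.0%) and Itgam (87.2%) were more frequent than in the members. Clec10a (22.0%), Mgl2 (0.429%), Flt3 (18.9%), Itgax (9.02%), Zbtb46 (0.736%) and Irf4 (9.82%) were less frequent there.

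Genes of the monocyte lineage were also frequent. Ccr2, the receptor that draws monocytes from marrow into tissue, was detected in 338 members (84.9%; B cells 1.59%), Cd14 in 202 (50.8%; 3.06%) and the high-affinity IgG receptor Fcgr1 in 78 (19.6%; 0.483%). In the type 1 dendritic cells gated below, Ccr2 was detected in 82.1%, Cd14 in 30.4%, Fcgr1 in 2.28% and Ly6c2 in 9.30%. Ccr2 was thus about as frequent there as in the members. Ly6c2, a surface protein of inflammatory monocytes, was detected in 138 members (34.7%; B cells 4.62%), 73 of them with 4 or more UMIs. Its reads can be confused with those of its near copy Ly6c1. An Flt3 UMI was held by 108 of the 138 Ly6c2-positive members and by 60 of the 78 Fcgr1-positive members, beside 75.1% of all members, and by 85 of the 108 Ly6c2-positive members without the plasmacytoid-marker cells described below. Both Mgl2 and Ly6c2 were detected in 12 members. Clec4a4, which marks type 2 cells in gut and spleen, had a UMI in 2 members (0.503%).

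RNA of other lung cells was present in members and B cells. The club cell transcript Scgb1a1 had a UMI in 98.0% of members and 99.0% of B cells (44.7% and 75.3% with each cell thinned to 1000 UMIs), the alveolar type 2 transcript Sftpc in 93.2% and 89.2% (18.6% and 42.7% thinned), and Hbb-bs, a beta-globin, in 61.3% and 51.8% (20.9% and 24.2% thinned). Markers of T cells summed to 0 to 34.2 CPM in the members of a library, of natural killer cells to 0 to 63.7, of alveolar macrophages to 5.25 to 241, of interstitial macrophages to 88.7 to 1054 and of neutrophils to 17.3 to 762. The classical monocyte list summed to 1157 to 3839 CPM and the type 2 dendritic cell list, which includes the rule's own genes, to 9503 to 13839. Over all members the rule's own H2-Ab1 stood at 8053 CPM and Cd209a at 881. The rule thus set most of the second sum, and the sums do not rank the lineages. The part of these other transcripts in the results below was not tested.

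Within the members, 31 cells (7.79%) carried at least 2 UMIs of the plasmacytoid markers Siglech, Ccr9 and Klk1 together. They stood apart, since 349 members had none of these UMIs, 18 had 1, 3 had 2 or 3, none had 4 to 8 and 28 had 9 or more, up to 142. Among the 31, Siglech was detected in 93.5% (2181 CPM), Ccr9 in 96.8% (1026 CPM) and Tcf4 in 100%. They also held Cd209a by the rule, Clec10a in 87.1%, Flt3 in 77.4% and Ly6c2 in 96.8%, but F13a1 and Fcgr1 in none, and their H2-Ab1 level was 2401 CPM. Mgl2 and Zbtb46 were detected in 6.45% each and Itgam in 12.9%. The members with neither that marker count nor a Ly6c2 UMI had 54.1%, 23.6% and 79.9%. Sirpa (67.7% against 78.4%) and Irf4 (45.2% against 53.3%) differed by less, and Itgax was at 41.9% against 72.6%. Mgl2, Zbtb46 and Itgam thus went against the type 2 label for these 31 cells, which are called plasmacytoid-marker cells here. By library the WT sample held 1, the p21Het libraries 2, 7 and 7, the p21mTert libraries 4, 1, 1, 1 and 4, and the p21mTertCD libraries 0 and 3, and the main results below are also given without them. In B cells of the same libraries 0.0591% to 0.833% met the same marker count.

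The other 367 members divided by Ly6c2, and the plot of detection by stratum gives 21 genes in each. The 259 members without a Ly6c2 UMI had Mgl2 in 54.1%, Ccl17 in 30.5%, Itgax in 72.6% and Il1b in 77.6%. The 108 with a Ly6c2 UMI, at a similar median depth (12404 against 14041 UMIs), had Mgl2 in 10.2%, Ccl17 in 1.85%, Itgax in 27.8% and Il1b in 55.6%. The Ly6c2-positive stratum instead held the transglutaminase gene F13a1 in 63.9% (20.1% without Ly6c2), the fibronectin gene Fn1 in 73.1% (27.8%) and Fcgr1 in 37.0% (14.7%). Flt3 (78.7% and 73.4%) and Clec10a (71.3% and 75.7%) were detected at like shares in both strata. Mki67, a proliferation marker, had a UMI in 11.97% of the members without Ly6c2 and in 1.85% of those with it.

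**Figure D1:**
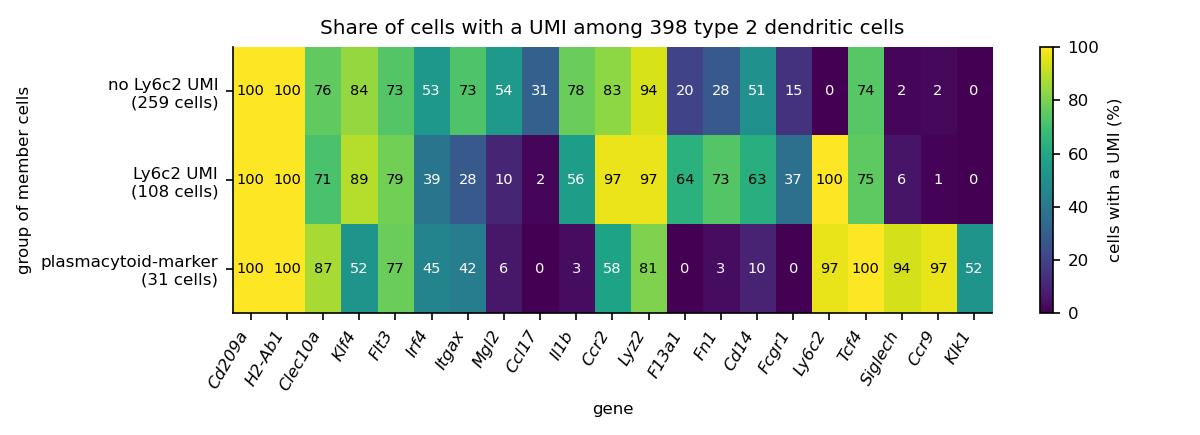
Percent of cells with at least 1 UMI of 21 genes in the 3 strata of the 398 members: 259 without a Ly6c2 UMI, 108 with a Ly6c2 UMI and 31 plasmacytoid-marker cells. Mgl2 and Ccl17 are most frequent without Ly6c2 (54.1% and 30.5%), F13a1 and Fn1 with it (63.9% and 73.1%), and Siglech and Ccr9 in the plasmacytoid-marker cells.

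The Ly6c2 division was tested by summing UMIs per library on each side, with a term for library, in edgeR's quasi-likelihood test with Benjamini-Hochberg adjustment. Over the 10 libraries with at least 10 cells on each side, 611 of 3029 genes were called at an adjusted p under 0.05 (20.2%), 275 higher (9.08%) and 336 lower (11.1%) in the cells with Ly6c2. Without the plasmacytoid-marker cells, a setting chosen after seeing the data, 5 libraries remained and 306 of 3496 genes were called (8.75%), 124 higher (3.55%) and 182 lower (5.21%). The split rests on detecting a UMI, and cells on both sides came from the same libraries. A summed level cannot tell fewer cells holding a transcript from fewer transcripts per cell.

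Of 5 tested chemokines, 2 were lower with Ly6c2 (Ccl17 and Cxcl16) and 3 were not called, with a median log2 difference of -0.03, and without the plasmacytoid-marker cells 2 were higher and 2 lower. Of 8 tested lectins and pattern receptors, 5 were lower and 3 not called (1 higher and 5 lower without the plasmacytoid-marker cells). Over all tested genes, 9.08% were higher and 11.1% lower with Ly6c2 (3.55% and 5.21% without those cells). Ccl17, a chemokine that draws Ccr4-bearing T cells, ran from 146 to 2052 CPM (median 741) without Ly6c2 and from 0 to 6.40 CPM (median 0) with it, 2792 UMIs against 1 over the 10 libraries. Over all 11 libraries, 2 of the 108 Ly6c2-positive members without plasmacytoid markers held 19 Ccl17 UMIs (13.7 CPM, against 794 CPM without Ly6c2), 18 of which lay in p21mTert replicate 3, the library left out of the fit for its few cells. The log2 difference was -9.57 (SE 0.23, adjusted p = 1.58e-16; -10.36 without the plasmacytoid-marker cells). Mgl2 ran from 501 to 1147 CPM (median 768) without Ly6c2 and from 0 to 256 (median 26.6) with it, a log2 difference of -4.12 (SE 0.31, adjusted p = 2.24e-08; -4.57). For both genes the sides did not overlap over the 10 fitted libraries. Mmp12 (-5.88), a macrophage elastase, Ear2 (-4.55), an eosinophil-associated ribonuclease, the endocytic adaptor Dab2 (-4.18), Mt1 (-3.05), a metallothionein, and Cxcl16 (-2.65), the ligand of Cxcr6, were lower as well, as were Bcl2a1b (-4.10) and Bcl2a1d (-3.62), near-identical members of a survival gene family whose reads may be split between copies.

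All 9 tested genes of the MHC class II list, from which H2-Ab1 is left out, were lower in the cells with Ly6c2, with a median log2 difference of -1.37 against 0.02 over all tested genes, and 8 were lower without the plasmacytoid-marker cells. H2-Aa ran from 7229 to 11722 CPM without Ly6c2 and from 1958 to 6525 with it (-1.37, SE 0.15, adjusted p = 2.18e-06), with no overlap between the sides. H2-DMb2, a chain of the chaperone that loads peptide, differed most (-3.23, SE 0.28), and H2-DMb1 least (-0.32, adjusted p = 0.0302; -0.07, adjusted p = 0.814, without the plasmacytoid-marker cells). The rule asks for H2-Ab1 on both sides of the division. The 5 tested co-stimulation genes were lower (3 without the plasmacytoid-marker cells), as were Itgax (-2.42) and Irf4 (-1.07, SE 0.26, adjusted p = 0.00578). Among all tested genes 11.1% were lower (5.21% without those cells).

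Il1b, the inflammatory cytokine, ran from 843 to 2554 CPM without Ly6c2 and from 0 to 1159 with it, a difference of -1.90 (SE 0.38, adjusted p = 0.00116). It missed the threshold without the plasmacytoid-marker cells (-1.36, adjusted p = 0.0558). Of the immediate-early and heat-shock list, whose transcripts respond to dissociation, 12 of 15 tested genes were lower in the cells with Ly6c2 (9 of 14 without the plasmacytoid-marker cells). Beside these, 11.1% of all tested genes were lower (5.21% without those cells).

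Several genes of the monocyte lineage were higher with Ly6c2. F13a1 ran from 19.7 to 500 CPM (median 328) with it and from 0 to 135 (median 54.1) without (2.13, SE 0.23, adjusted p = 1.94e-06), higher in 9 of 10 libraries with overlapping ranges. Hp, haptoglobin (2.81), Apoe (3.21), Gsr, glutathione reductase (1.76), Cd93 (1.71), Cebpb, a factor of monocytes and granulocytes (1.37), Fn1 (1.31) and the fractalkine receptor Cx3cr1 (1.11) were higher too, and remained called without the plasmacytoid-marker cells at log2 differences from 1.66 to 3.34. Of the classical monocyte list, 3 of 5 tested genes were higher, and 5 of 6 without the plasmacytoid-marker cells. The shares higher among all tested genes were 9.08% and 3.55%. Of the 2 tested genes of the non-classical monocyte list, 1 was lower and none higher, and neither was called without those cells.

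Part of the difference moved in the fit without the plasmacytoid-marker cells. That fit also held 5 libraries instead of 10, and the part of each change was not tested. Irf8 ran from 141 to 1318 CPM with Ly6c2 and from 11.03 to 38.9 without (4.19, SE 0.27), and the difference was 1.68 (adjusted p = 0.00316) in the fit without those 31 cells. Ctsl, a lysosomal protease, differed by 3.28 with them and 0.70 (adjusted p = 0.337) without, and Tcf4 by 1.68 with them and 0.46 (adjusted p = 0.152) without. Runx2, Upb1 and Egr3 had too few UMIs to be tested there. Flt3 (0.21, adjusted p = 0.261) and Cdkn1a (-0.29, adjusted p = 0.143) did not pass the test.

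**Figure D2:**
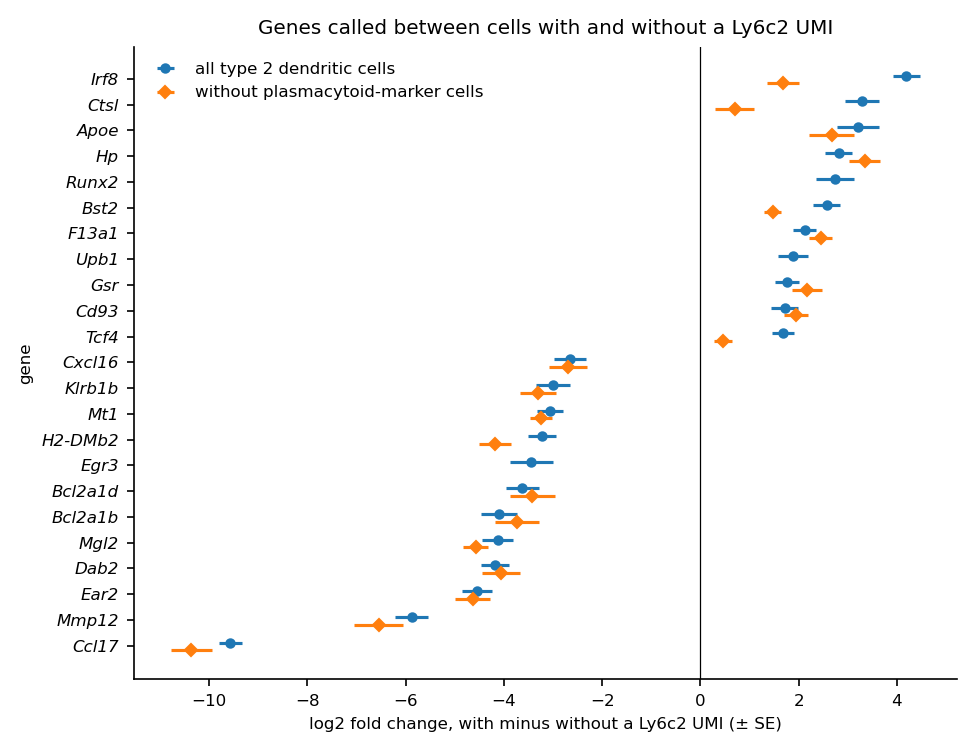
Log2 difference (cells with minus cells without a Ly6c2 UMI, error bars SE) of 23 named genes, in blue for all members over 10 libraries and in orange without the plasmacytoid-marker cells over 5 libraries. Irf8 moves from 4.19 to 1.68 and Ctsl from 3.28 to 0.70, whereas Ccl17 and Mgl2 stay below -4 in both fits.

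The members were next compared with 3 other cell gates of the same libraries, each with a term for library. Type 1 dendritic cells (570 barcodes) held at least 2 UMIs of Xcr1 and Clec9a and at most 1 of Cd209a, mature dendritic cells (142) held at least 3 UMIs of Ccl22 and Fscn1 and at least 1 of Ccr7, and both held at least 5 of H2-Ab1. Classical monocytes (1630) held at least 2 Ly6c2 UMIs, at least 1 of Ccr2, under 5 of H2-Ab1 and none of Cd209a. There were 29.5 to 205 members per 100 type 1 cells by library. Genes used by a gate are left out of the named genes, and the named levels are means over libraries with the lowest and highest library.

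Against type 1 cells, 1949 of 5251 genes were called over 11 libraries (37.1%), 982 higher (18.7%) and 967 lower (18.4%) in the members. Clec10a ran from 219 to 555 CPM (median 275) in the members and from 4.83 to 36.4 (median 12.3) in type 1 cells, a log2 difference of 4.13 (SE 0.24, adjusted p = 6.8e-11). Ms4a4c, a tetraspan membrane protein of myeloid cells, showed the largest rise of the named genes (5.35, SE 0.18), from 5.70 to 286 CPM as medians. Clec4a1 (4.81, SE 0.20) ran from 55.4 to 147 CPM against 0 to 5.01, and Ifitm6 (4.30, SE 0.18) from 137 to 495 CPM against 3.84 to 42.5. These are the genes whose promoter stretches are printed above, and each was higher in 11 of 11 libraries with no overlap.

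Further genes higher than in type 1 cells were Tmem176a (5.00) and Tmem176b (4.91), paired ion channel genes of immature dendritic cells, Mefv (4.68), which encodes the inflammasome sensor pyrin, the calcium-binding S100a4 (4.45), the chemokine Ccl9 (4.35) and Cx3cr1 (4.13). Itgam stood at 79.3 to 203 CPM against 1.65 to 22.2 (4.04, SE 0.22), and Mgl2 at 339 to 906 CPM against 0 to 133 (3.60, SE 0.38). Several genes typical of type 1 cells were lower. Gcsam, a signalling adaptor, had 0 UMIs in the members and 819 in type 1 cells, at least 152-fold lower when 3 UMIs over all members are taken as the floor. Tlr3, the receptor for double-stranded RNA, ran from 0 to 7.07 CPM against 101 to 187 (-6.73, SE 0.29), the adhesion molecule Cadm1 from 0 to 14.4 CPM against 207 to 281 (-5.11, SE 0.19) and the integrin Itgae (CD103) from 0 to 23.4 CPM against 175 to 408 (-5.48, SE 0.26).

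The lineage factors separated these gates. Irf4 stood at 60.4 to 177 CPM in the members and 0.999 to 16.9 in type 1 cells (3.66, SE 0.22), and Irf8 at 59.6 to 547 against 1116 to 1530 (-2.96, SE 0.21). Without the plasmacytoid-marker cells the Irf8 difference was -4.61. Zeb2 was higher (2.58), and Id2 (-2.95) and Batf3 (-0.83) were lower. Klf4 (0.40) and Notch2 (-0.73), both needed by subsets of type 2 cells, differed by less. In all, 6 of the 14 tested dendritic cell factors were higher and 8 lower, and 6 and 6 without the plasmacytoid-marker cells, beside 18.7% higher and 18.4% lower over all genes.

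Over all genes 18.7% were higher and 18.4% lower than in type 1 cells. Of 4 tested growth factor receptors, 1 was higher, 1 lower and 2 not called. Csf1r, the receptor for the monocyte growth factor, stood at 96.1 to 231 CPM against 9.19 to 41.3 (2.89, SE 0.17), while Flt3 was lower in the members in 11 of 11 libraries by a small amount (-0.48, SE 0.08, adjusted p = 0.000123), with overlapping ranges. All 6 tested chemokine and lipid receptors were higher, among them Ccr1 (2.44), Cxcr4 (1.20) and Ccr2 (0.73). Of the classical monocyte list, 6 of 7 tested genes were higher than in type 1 cells and 1 was lower (median 1.98), and its part in these differences was not tested. Il1b was 1.82 higher (SE 0.16; 552 to 1897 CPM against 208 to 559) and Tnf 1.20 higher.

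Of 9 tested MHC class II genes, 1 was higher and 2 were lower than in type 1 cells, a share near the 37.1% called over all genes (18.7% higher and 18.4% lower), with a median log2 difference of -0.04 beside -0.00 over all genes. Of the 12 tested MHC class I genes, 2 were higher and 5 lower (1 and 6 without the plasmacytoid-marker cells), including Psmb9, a subunit of the immunoproteasome (-1.62), and the peptide transporter Tap1 (-0.69). Among 9 endolysosomal proteases and inhibitors, 6 were higher and 2 lower (5 and 3 without the plasmacytoid-marker cells). Ctsl, named after its values were seen, differed by 0.47 (adjusted p = 0.0892) with those cells and by -1.30 (adjusted p = 0.00183) without them. Ctsh (1.501) and Ctss (0.91), cathepsins that trim antigen and invariant chain, were higher, and the cathepsin inhibitor Cst3 was lower (-2.16, SE 0.10), at 3890 to 6650 CPM against 16316 to 28398.

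Cdkn1a was higher in the members than in type 1 cells in 11 of 11 libraries. It stood at 126 to 355 CPM (median 187) against 33.0 to 110 (median 81.0), with no overlap between the gates (1.29, SE 0.15, adjusted p = 8.47e-07). Against mature dendritic cells it was lower in 6 of 7 libraries (-0.95, SE 0.22, adjusted p = 0.00336). Against classical monocytes the difference was small (-0.26, SE 0.08, adjusted p = 0.0126) and was lost without the plasmacytoid-marker cells (-0.16, adjusted p = 0.114).

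Mature dendritic cells are those that have switched on Ccr7 and are on their way to lymph nodes. In the 7 libraries with at least 10 of them, 1413 of 4014 genes were called (35.2%), 670 higher (16.7%) and 743 lower (18.5%) in the members. Il12b, a subunit of interleukin 12, had 0 UMIs in the members of these libraries against 1286 in the mature cells (215 to 980 CPM), at least 849-fold lower by the floor of 3 UMIs. In all 11 libraries the members held 10 Il12b UMIs, every one of them in p21mTert replicate 5, which is not among the 7. Cacnb3 (-8.58; -9.37 without the plasmacytoid-marker cells), Ccl5 (-8.07), Zmynd15 (-7.51) and Socs2 (-5.55), a brake on cytokine signalling, were lower with no overlap.

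Of the 7 tested co-stimulation genes, 6 were lower in the members than in mature cells. Cd86 stood at 62.8 to 93.8 CPM against 199 to 420 (-1.94, SE 0.16), Cd40 at 16.2 to 40.7 against 46.4 to 196 (-2.10, SE 0.25) and Cd274, the inhibitory ligand PD-L1, at 1.78 to 25.2 against 104 to 244 (-3.94, SE 0.32). Relb, the NF-kappaB subunit of dendritic cell maturation, was lower (-3.56, SE 0.22), and so was Ccl17 (-3.13, SE 0.31), at 247 to 1088 CPM against 2025 to 7604. The MHC class II list gave 2 higher (H2-DMa, 0.70, and H2-DMb1, 1.40) and 2 lower genes of 9, a share near the 35.2% called over all genes. The MHC class I list gave 9 lower genes of 13 and none higher, beside 18.5% lower over all genes, including B2m (-0.88) and H2-K1 (-1.02).

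Genes higher in the members than in mature cells included several of the monocyte lineage. Ly6c2 stood at 37.0 to 391 CPM against 0 to 5.85 (6.04, SE 0.37; 5.30 without the plasmacytoid-marker cells, which held 562 of its 1244 UMIs over all libraries), and Fn1 (5.64) and Plac8 (5.52) were higher as well. Ccr2 (2.66), Csf1r (2.44) and Cebpb (2.76) were higher. Irf4 (-0.44, adjusted p = 0.224) and Mgl2 (-0.03, adjusted p = 0.964) missed the threshold, and the libraries went both ways.

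Against classical monocytes, 2837 of 5758 genes were called over 11 libraries (49.3%), 1424 higher (24.7%) and 1413 lower (24.5%) in the members. Mgl2 ran from 339 to 906 CPM in the members and from 0 to 1.79 in monocytes (10.27, SE 0.18, adjusted p = 1.24e-20), and Ccl17 from 99.8 to 1237 CPM against 0 to 2.52 (9.59, SE 0.21). Cd209d, printed above and a close relative of Cd209a whose reads may be shared with it, stood at 21.2 to 157 CPM against 0 to 8.96 (6.23, SE 0.45). The NF-kappaB inhibitor Tnip3 (6.12), the cyclin Ccnd1 (5.86) and Dab2 (5.86) were also higher in every library. The monocyte gate was capped on H2-Ab1, so the class II genes are given as a description: all 9 stood higher in the members, H2-Aa at 6107 to 10516 CPM against 21.1 to 68.6.

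Dendritic cell genes went both ways against monocytes. Of 8 tested genes of the type 2 dendritic cell list, 5 were higher and 3 lower (5 and 2 without the plasmacytoid-marker cells), and of 13 tested dendritic cell factors, 5 were higher and 6 lower (5 and 5 without them), with a median of -0.04. Over all genes 24.7% were higher and 24.5% lower. Flt3 was at 101 to 148 CPM against 11.9 to 43.8 (2.65, SE 0.14) and Irf4 at 60.4 to 177 against 5.27 to 20.4 (3.33, SE 0.17), with no overlap. Clec10a (3.96), Itgax (3.46), the mannose receptor Mrc1 (4.22) and the co-stimulation genes Cd83 (3.76) and Icosl (3.16) were higher, as were Tnf (3.44) and Il1b (1.35). Sirpa and Itgam, which the type 2 branch carries, were instead detected less often in the members than in monocytes. Sirpa had a UMI in 77.1% of members and 82.0% of monocytes (9.80% and 21.3% when thinned as above). Itgam was detected in 72.4% and 87.2% (12.3% and 25.7% thinned), and Klf4 in 82.9% and 85.8% (34.2% and 38.7% thinned).

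Monocyte genes were lower. Vcan, the proteoglycan versican, ran from 0 to 5.34 CPM against 122 to 716 (-7.96, SE 0.23), the matrix protein gene Thbs1 from 0 to 49.7 against 333 to 2624 (-5.64, SE 0.24) and coagulation factor F10 from 0 to 9.42 against 89.0 to 272 (-5.19, SE 0.21). Cebpb (-2.90), Csf3r (-3.34), Csf1r (-1.28) and the scavenger receptor Msr1 (-5.07) were lower. All 7 tested genes of the classical monocyte list were lower, beside 24.5% over all genes. Irf8 was lower by 0.80 on the log2 scale (SE 0.20) and by 2.46 without the plasmacytoid-marker cells. The natural killer genes Gzma, Nkg7 and Ccl5 were lower too, with ranges that overlapped and a wide spread in the monocyte gate (Gzma 31.4 to 2125 CPM), and the part of natural killer RNA in that gate was not tested.

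Interferon genes were lower in the members than in classical monocytes: 9 of 11 tested type I interferon genes fell and 1 rose, with a median log2 difference of -0.67 beside -0.01 over all genes, of which 24.5% were lower and 24.7% higher. Against type 1 cells the same list gave 4 higher and 1 lower of 6 (median 0.95; 3 higher and 1 lower without the plasmacytoid-marker cells). Isg15, a ubiquitin-like modifier, stood at 14.8 to 158 CPM against 53.7 to 269 (-1.28, SE 0.18). Of the PYHIN family, sensors of intracellular DNA, 6 of 7 were lower, with Ifi204 at -2.15 (SE 0.14).

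**Figure D3:**
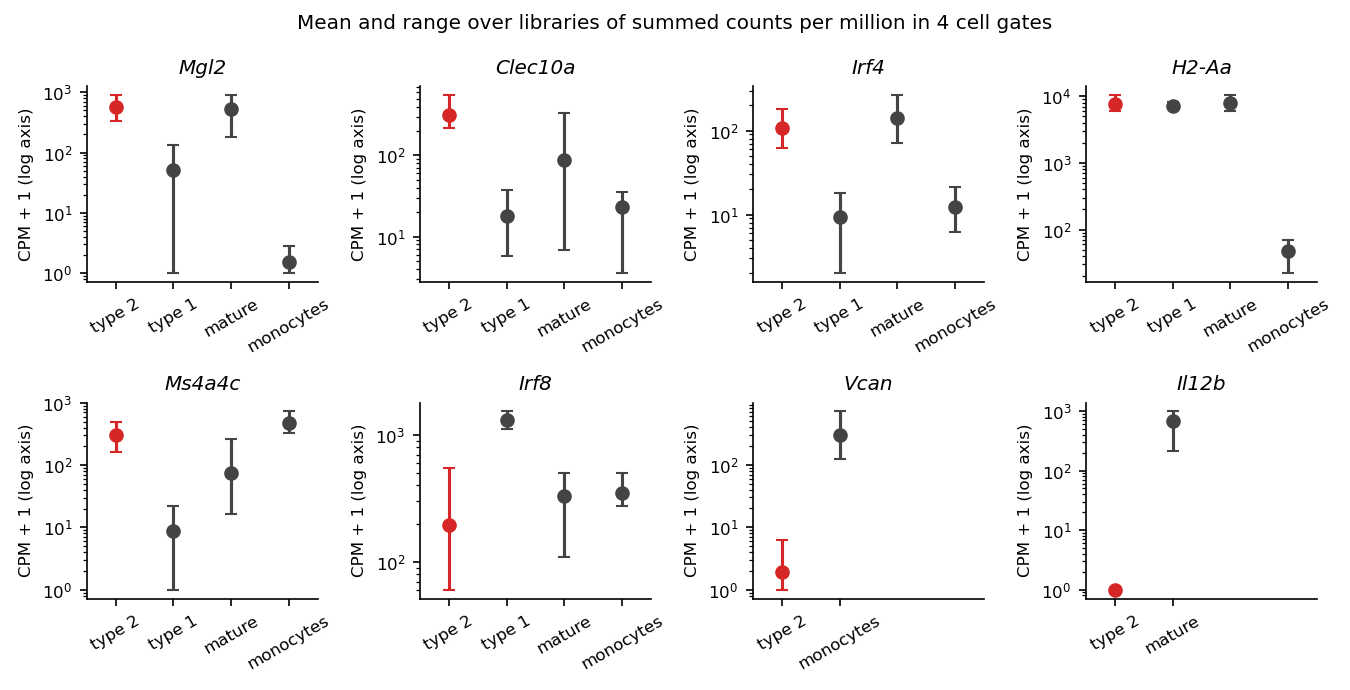
Level of 8 genes in the 4 cell gates as CPM plus 1 on a log axis, points for the mean and bars for the range over libraries (7 for mature dendritic cells and 11 for the others), with a gate left out where the gene was not tested. Irf4 is higher in the members than in type 1 cells and monocytes, Irf8 is highest in type 1 cells, Vcan marks monocytes and Il12b mature cells.

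With the plasmacytoid-marker cells left out, 1918 of 5096 genes (37.6%) were called against type 1 cells, 1398 of 3979 (35.1%) against mature cells and 2761 of 5634 (49.0%) against monocytes. Depth differs between gates, and with every cell thinned to 1000 UMIs, which leaves 428, 302 and 625 genes to test, 110, 113 and 323 were called. All 24 named genes of each comparison kept their direction and their call in the alternatives where they could be tested.

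The share of members among filtered barcodes was compared between genotypes. WT had 0.787% (exact 95% interval 0.570% to 1.06%, which covers counting error only). The 3 p21Het libraries had 0.579%, 0.481% and 0.887% (mean 0.649% ± 0.212 SD, n = 3), the 5 p21mTert libraries 0.723%, 0.385%, 0.285%, 0.607% and 0.530% (0.506% ± 0.174 SD, n = 5), and the 2 p21mTertCD libraries 0.503% and 0.679% (0.591% ± 0.124 SD, n = 2). The groups overlapped. p21mTert minus p21Het was -0.143 percentage points (2-sided exact permutation test, p = 0.357, adjusted p = 0.980 over 18 tests), p21mTert minus p21mTertCD -0.0849 (p = 0.667, adjusted p = 1) and p21mTertCD minus p21Het -0.0579 (p = 1). Because permutation p-values are bounded by the number of libraries (0.0357 at best for the first contrast, 0.0952 for the second and 0.2 for the third), only the first could have reached 0.05, and after adjustment over the 18 share tests none could (0.107 at best). In the later deposit alone the first 2 differences were -0.232 and -0.139 (exact permutation p = 0.4 for each), and the earlier deposit holds 1 library each of WT, p21Het and p21mTert and none of p21mTertCD.

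**Figure D4:**
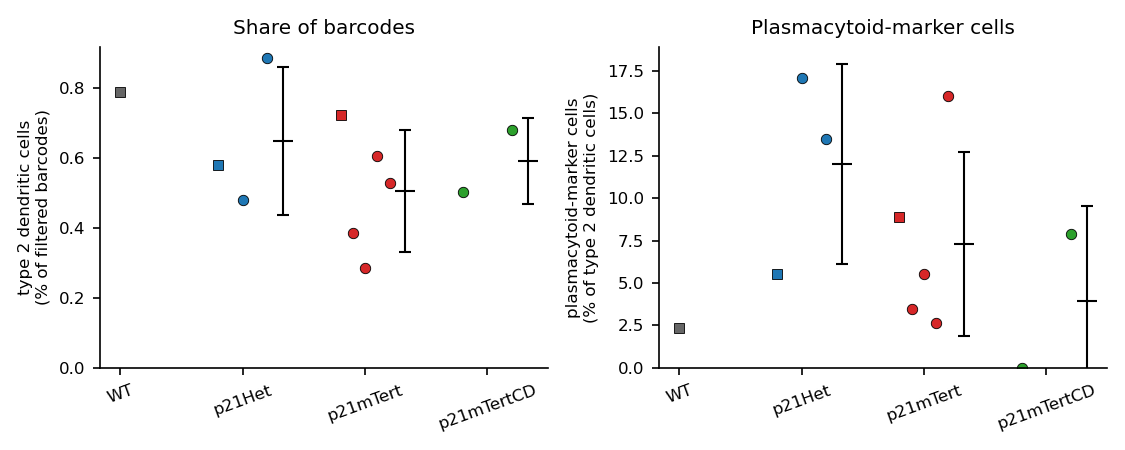
Left, type 2 dendritic cells as percent of filtered barcodes by genotype; right, plasmacytoid-marker cells as percent of those members. Each point is a library (squares, earlier deposit; circles, later), with bars for mean ± SD, and the shares on the left run from 0.285% to 0.887% with overlapping groups.

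Among the members, shares with a UMI were compared after thinning each cell to 1000 UMIs. Flt3 was detected in 16.0% ± 4.02 (SD, n = 5) of p21mTert members, 10.0% ± 1.97 (n = 3) of p21Het and 9.81% ± 1.01 (n = 2) of p21mTertCD members, with 13.95% in WT. The difference of 5.99 points from p21Het had a 2-sided exact permutation p of 0.0714 and that of 6.23 points from p21mTertCD of 0.0952, both with an adjusted p of 0.571. Ly6c2 was detected in 8.25% ± 4.23, 14.2% ± 5.11 and 12.8% ± 3.27 in the same order (p21mTert minus p21Het -5.98, exact permutation p = 0.0714). That difference was -0.406 points without thinning, and 2.67, the opposite direction, without thinning and without the plasmacytoid-marker cells. Mgl2 (20.1% ± 6.30, 23.1% ± 10.3 and 19.4% ± 6.03), Il1b (41.0% ± 5.90, 39.1% ± 15.0 and 35.8% ± 16.4) and the proliferation genes Mki67 or Top2a (2.00% ± 2.77, 5.18% ± 4.91 and 4.35% ± 2.42) overlapped between the groups. Without thinning, Il1b was 14.9 points higher in p21mTert than in p21Het (exact permutation p = 0.0357, unadjusted). None of the thinned shares passed the threshold, which none could have passed after adjustment, and some directions turned with the processing, as given at the close.

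Levels of the type 2 genes varied between libraries of a genotype. For Mgl2, WT gave 906 CPM, the p21Het libraries 517, 724 and 505, the p21mTert libraries 412, 392, 695, 722 and 601, and the p21mTertCD libraries 339 and 392. Ccl17 ranged more widely, with 525 CPM in the WT library, 706, 1088 and 288 for p21Het, 247, 99.8, 665, 569 and 1237 for p21mTert, and 304 and 489 for p21mTertCD. Flt3 ranged less, from 101 to 148 CPM over the 11 libraries. Cdkn1a, from which p21 is made, stood at 355 CPM for WT, at 205, 187 and 172 for p21Het, at 173, 147, 126, 209 and 191 for p21mTert, and at 224 and 183 for p21mTertCD. The WT library was above the 10 others, and with 1 WT library there is no test. Cdkn1a was detected in 294 members (73.9%), whereas Tert had 6 UMIs in 6 members, too few for a comparison, and the labels do not say which transcripts of the altered alleles the counted 3′ tags would show, so neither gene checks a genotype.

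UMIs summed per library over the members were fitted with edgeR's quasi-likelihood test over the 10 replicated libraries. No gene of 5819 was called in any of the 3 contrasts (0.0%), with 201, 381 and 275 genes at an unadjusted p under 0.05 when p21mTert was set against p21Het, p21mTert against p21mTertCD, and p21mTertCD against p21Het. DESeq2 called 3, 6 and 1 in that order. Without the plasmacytoid-marker cells the count was 0 of 5618. The contrasts share libraries, so the same values return in more than 1 of them, and the genes below are given as values.

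Of the genes of smallest p for p21mTert minus p21Het, Gm42031, a long intergenic RNA gene on chromosome 8 (GRCm38 85125872 to 85132289, minus strand), stood at 85.6, 34.2, 33.3, 65.3 and 68.8 CPM in p21mTert, at 6.99, 16.2 and 13.01 in p21Het, at 9.42 and 10.7 in p21mTertCD and at 13.4 in WT. All 5 p21mTert libraries were above all others (log2 difference from p21Het 2.27, SE 0.35, adjusted p = 0.0512; from p21mTertCD 2.50, SE 0.45, adjusted p = 0.0802). Leaving out 1 library moved it past the threshold against p21Het in 2 of the fits (without p21mTert replicate 2 or 3), and so did a term for deposit. Gm42031 was picked by its small p, so the separation of its libraries is a description only.

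Gm47283, on chromosome Y (90784738 to 90816464), stood at 116, 73.6, 129, 74.9 and 110 CPM in p21mTert and 46.6, 14.4 and 24.9 in p21Het (1.91, SE 0.31, adjusted p = 0.0512), with 70.7 in WT and 21.2 and 33.8 in p21mTertCD. It has near-identical copies, so its counts are uncertain, and an earlier analysis of other cells of these libraries had already named it, as it had Wdfy1 (1.48, adjusted p = 0.972 here), so neither value is independent support. Ddx39, an RNA helicase, was at 28.5 ± 2.12 CPM (SD, n = 5) in p21mTert and 63.3 ± 12.2 (n = 3) in p21Het (-1.11, SE 0.22, adjusted p = 0.310).

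Ccnb2, a mitotic cyclin, had 0 UMIs in all 5 p21mTert libraries. The p21Het libraries held 42 UMIs (2.33, 32.4 and 24.9 CPM) and the p21mTertCD libraries 17 (23.6 and 12.5 CPM), so that p21mTert was at least 15.1-fold and 11.8-fold lower by a floor of 3 UMIs over the group. WT was also at 0. Its adjusted p against p21Het was 0.645, and the cell cycle list, of which 10 genes were tested and 0 called, had median log2 differences of -1.94, -1.72 and -0.26 in the 3 contrasts beside 0.01, 0.02 and -0.01 over all genes. By replicate the list summed to 110, 931 and 570 CPM in p21Het and to 104, 160, 499, 186 and 176 in p21mTert. It summed to 502 and 315 CPM in p21mTertCD and to 63.1 in WT, so the groups overlapped. Birc5, another mitotic gene, was at 77.5 and 24.9 CPM in p21Het replicates 2 and 3 and at 2.33 in replicate 1, the only p21Het library of the earlier deposit.

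Among the interferon genes of smallest p, levels were highest in the p21mTertCD libraries. Isg15 was at 158 and 81.9 CPM in p21mTertCD, 26.5, 21.02, 14.8, 30.7 and 20.4 in p21mTert, 48.9, 18.0 and 58.6 in p21Het and 42.0 in WT (p21mTert minus p21mTertCD -2.33, SE 0.36, adjusted p = 0.0590). Rnf213, an interferon-induced ubiquitin ligase, was at 134 and 116 CPM against 33.3 to 78.8 elsewhere (p21mTertCD minus p21Het 1.55, SE 0.27, adjusted p = 0.105), and Lgals3bp at 113 and 135 CPM against 25.2 to 61.1 (1.59, SE 0.30, adjusted p = 0.146). For each of these 3 genes both p21mTertCD libraries lay above the other 9. The genes were picked by small p in contrasts with p21mTertCD, so this separation is a description only. How many of all genes part in this way was not counted.

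Of the type I interferon list, 13 genes were tested and 0 called. The median log2 difference was -0.00 for p21mTert minus p21Het, -1.65 for p21mTert minus p21mTertCD and 1.54 for p21mTertCD minus p21Het, where 12 of 13 genes were positive. Over all genes the medians were 0.01, 0.02 and -0.01 in that order, and counts of signs were not tested. The list summed to 4810 and 4136 CPM in p21mTertCD and to at most 3632 in another library (p21Het replicate 3). The PYHIN list, with 8 tested, had medians of 0.09, -0.998 and 1.05. Classical monocyte markers, 9 of 9 detected, summed to 3684 and 3360 CPM in p21mTertCD, 1569 to 2964 in p21Het, 1157 to 3839 in p21mTert and 1888 in WT. All 8 tested were positive for p21mTertCD minus p21Het (median 0.51 beside -0.01 over all genes), and none was called. Erythroid transcripts, 4 of 4 detected, summed to 12180 CPM in p21mTertCD replicate 1 but 643 in replicate 2, 74.6 to 3892 in p21Het, 104 to 691 in p21mTert and 45.9 in WT, with median log2 differences of -2.43, -4.39 and 1.87. The part of monocyte or erythroid RNA in the interferon values was not tested. Summed plasmacytoid markers were lowest in p21mTertCD replicate 1, at 172 CPM, and highest in p21mTert replicate 5, at 1248.

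Retnla, a secreted resistin-like protein of alternatively activated macrophages, was at 66.0 and 288 CPM in p21mTertCD and 4.08, 0, 0, 9.61 and 0 in p21mTert (-5.66, SE 1.01, adjusted p = 0.0802), but also at 264 CPM in WT and 113 in p21Het replicate 3. Cdkn1a gave -0.09 (SE 0.18) for p21mTert minus p21Het, -0.26 (SE 0.21, adjusted p = 0.881) for p21mTert minus p21mTertCD and 0.18 (SE 0.22) for p21mTertCD minus p21Het. The 9 tested MHC class II genes had medians of 0.01, -0.04 and 0.03, the 10 p53 targets of 0.17, 0.06 and 0.07 and the dendritic cell factors, 13 of 14 positive for p21mTert minus p21Het, of 0.18, 0.29 and -0.04. None of these genes was called, counts of signs were not tested, and the medians over all genes were 0.01, 0.02 and -0.01. Counts were simulated for the 10 replicated libraries, with changes placed in p21mTert and tested against p21Het. Of genes changed by 1 on the log2 scale 60% were recovered, and 100% of those changed by 2. The changed genes held at least 50 CPM, and the simulated spread followed the trend over genes without gene-specific spread. These rates therefore do not show that a real change of either size would be called.

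**Figure D5:**
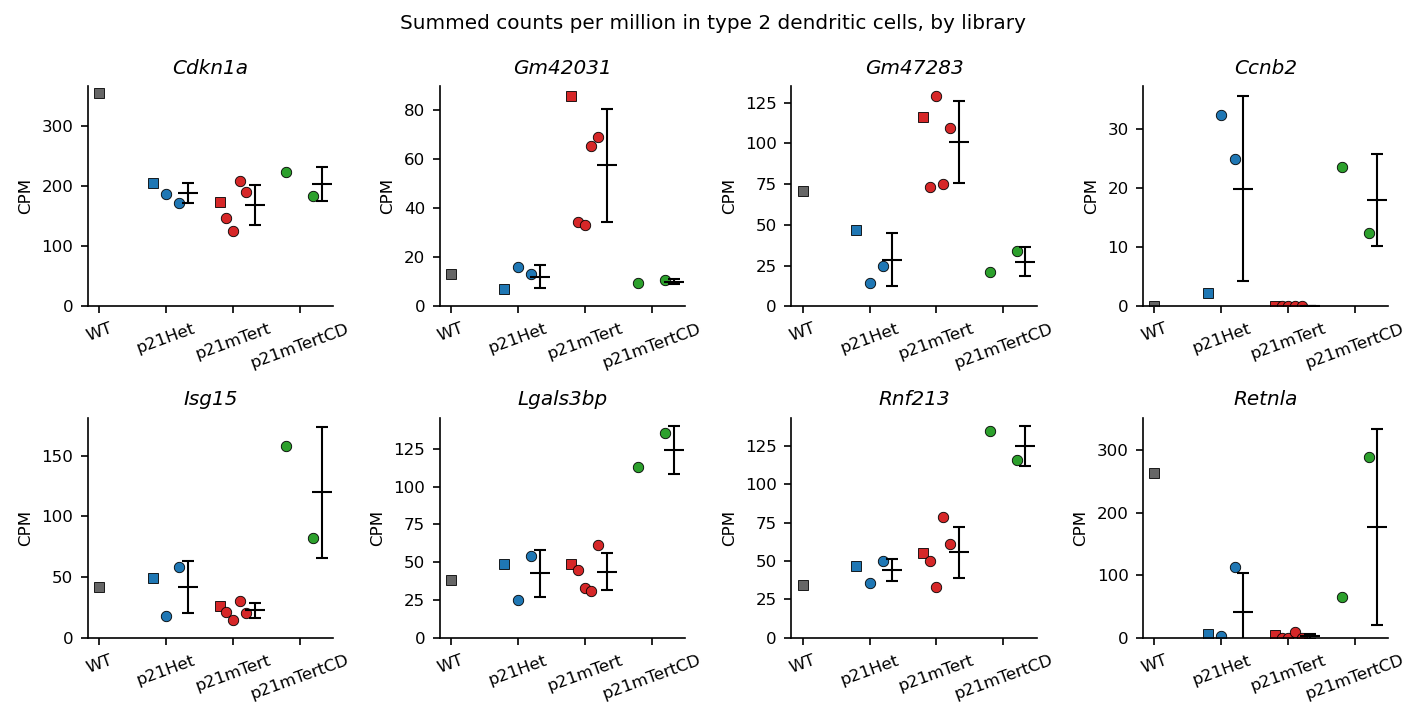
Level in CPM of Cdkn1a, Gm42031, Gm47283, Ccnb2, Isg15, Lgals3bp, Rnf213 and Retnla summed over the members of each library, by genotype (squares, earlier deposit; circles, later), with bars for mean ± SD in the replicated groups, drawn from 0 upward. Gm42031 is higher in all 5 p21mTert libraries than in any other, and Isg15, Lgals3bp and Rnf213 in both p21mTertCD libraries, while Retnla is also high in WT. All but Cdkn1a were picked by small p in the genotype contrasts, so these separations are a description only.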

How the data were processed

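Dissociated mouse lung was profiled by 3′ droplet sequencing in 11 libraries of 4 genotypes. The authors deposited raw UMI counts for 31053 genes, mapped to mm10 with Cell Ranger per the labels' protocols. The filter of 1000 to 30000 UMIs and at most 14% mitochondrial UMIs, which those protocols describe, was applied here. The members and gene lists were chosen with earlier results of these data known. Scrublet's own thresholds marked too few cells in some libraries, so the highest-scoring cells were marked, at 0.8% per 1000 barcodes, with scanpy 1.11.5 (Python 3.11.15).

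Counts summed per library, over at least 10 cells, were filtered with filterByExpr, scaled by TMM and put to the quasi-likelihood test of edgeR 4.0.16 (R 4.3.3), with Benjamini-Hochberg adjustment and a threshold of 0.05. Genotype fits held the 10 replicated libraries and their group, and fits between gates a term for library. Shares were tested with 2-sided exact permutation tests, adjusted over 18 tests. Levels are counts per 1000000 summed UMIs, and the fits were tested on simulated data. DESeq2 1.42.0, other filters, gates, scalings, thinning, deposit terms and leaving out each library were the alternatives.

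Named genes between gates and for the Ly6c2 division are the 12 called per direction with the largest difference and at least 50 CPM in the higher gate, leaving out genes of the gates. Genotype contrasts name called genes or, with under 10 called, the 10 of smallest p with at least 10 CPM, as values. Called list genes, or otherwise the 6 of highest level, Cdkn1a and Tert are named too. The total Il12b UMIs over all libraries were looked up after the values were seen. Of 283 list genes, 4 were not analysed here (Ifi30, Clec7a, Mx2 and Mnda). Gene positions are from GENCODE (GRCm38). Results on some genes are not reported here.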

Additional observations from a re-analysis of the deposited data

Results flagged for a closer look

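In 5 of 30 groups of p21mTert values, 1 of the 5 libraries lay far from the other 4 by Dixon's criterion, which chance meets in about 1 of 20 groups. The thinned share of members with a Ly6c2 UMI was 15.6% in p21mTert replicate 1 and 5.26% to 8% in the others. Wdfy1, an endosomal adaptor, was at 18.5 CPM in p21mTert replicate 3 and 30.7 to 34.7 in the others. Birc5 was at 14.8 CPM in p21mTert replicate 3 and at 0 to 3.84 in the others. That replicate held 18 members with 270515 UMIs together, the fewest of any library, so its Wdfy1 and Birc5 values rest on few UMIs. The Ly6c2 shares rest on few cells too, since p21mTert replicate 1 held 45 members. Areg, the growth factor amphiregulin, was at 28.5 CPM in p21mTert replicate 1 and at 0 to 2.55 in the others. Zbp1, an interferon-induced nucleic acid sensor, was at 65.7 CPM in p21mTert replicate 2 and at 18.5 to 26.5 in the others.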

How the results depend on the processing

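The count of genes called for p21mTert minus p21Het (0) became 3 with DESeq2 (Gm42031, Ccnb2, Gm47283), 47 with no filter on low counts, 1 with at least 20 cells per library (Gm42031), 2 with a term for deposit, 2 without doublet-marked cells (both Gm42031 and Gm47283) and 2 in the later deposit alone (Dusp2, Gm47283). Leaving out single libraries gave 0 to 2, with 2 without p21Het replicate 1 and 1 without p21mTert replicate 2 or 3. For p21mTert minus p21mTertCD it became 6 with DESeq2, 87 with no filter, 1 with the replicate block (Retnla), 1 without doublet-marked cells (Isg15) and 10 with only the 2 groups compared, and 0 to 9 with single libraries left out, with 9 without p21Het replicate 1, 3 without p21Het replicate 2, 2 without p21Het replicate 3 and 6 without p21mTertCD replicate 2. For p21mTertCD minus p21Het it became 1 with DESeq2, 54 with no filter, 2 with Cd209a at 3 or more UMIs (Lgals3bp among them), and 0 to 1 with single libraries left out (1 without either p21mTertCD library). With no filter, genes of very few UMIs enter the fit. The Ly6c2 division gave 1089 genes with no filter, 37 with cells thinned to 1000 UMIs, 331 with Cd209a at 3 or more and 306 without plasmacytoid-marker cells (fewer libraries, 4 and 5), and 459 to 628 with single libraries left out. The gate comparisons fell to 110, 113 and 323 with thinning, where fewer genes could be tested.

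The share of members turned sign for p21mTertCD minus p21Het with the replicate block (0.0610), and single libraries moved the differences of p21mTert from p21Het, p21mTert from p21mTertCD, and p21mTertCD from p21Het from -0.227 to -0.0239, from -0.173 to 0.00287 and from -0.146 to 0.0610. Without thinning, Mgl2 gave -8.16 for p21mTert minus p21mTertCD, Ly6c2 8.17 and Il1b 3.77 for p21mTertCD minus p21Het (all turned), and Il1b 14.9 for p21mTert minus p21Het (exact permutation p = 0.0357). Without plasmacytoid-marker cells and thinning, Ly6c2 gave 2.67 for p21mTert minus p21Het and 14.3 for p21mTertCD minus p21Het. With single libraries left out, in the same order of contrasts as the shares above, the differences ran from -7.52 to 2.61, -3.55 to 4.98 and -8.23 to 1.90 for Mgl2, -8.94 to -4.45, -6.90 to -2.27 and -4.35 to 0.913 for Ly6c2, 4.44 to 7.06, 4.68 to 7.24 and -1.10 to 0.834 for Flt3, -6.10 to 8.75, -6.34 to 16.8 and -14.9 to 8.26 for Il1b, and -5.76 to -0.885, -4.06 to -0.632 and -3.42 to 1.46 for Mki67 or Top2a. Where not stated, the cause was not tested. Whether replicate numbers pair the libraries was not settled. Over 7 same-numbered pairs the correlation of deviations ran from -0.258 to 0.431, beside -0.424 to 0.375 over 24 other pairs. The highest was p21Het replicate 1 with p21mTert replicate 1, both of the earlier deposit. The 2 p21mTertCD libraries have mirrored deviations, so pairs with them cannot tell. The block changed no other call. The 18 to 52 members per library limit the precision of every genotype value.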

Other observations

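The summed level of the immediate-early and heat-shock list, whose transcripts respond to the dissociation of tissue, split the members by deposit. It was 16734, 13004 and 15761 CPM in WT, p21Het replicate 1 and p21mTert replicate 1, and 5642 to 9441 CPM in the 8 libraries of the later deposit. Among cytokines of helper T cell priming, Il10 had 1 UMI, Il23a 6 and Il6 14 in all members, 11 of the Il6 UMIs in WT.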
